A study of Mus musculus with 43 samples.

Results

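Promoters and distal regions carrying H3K4me3, H3K27ac or both were compared in testicular cells of wild-type (WT) C57BL/6J mice at postnatal day 14 (P14), from 4 CUT&Tag peak lists, 2 for each mark, of 43 samples in the series. CUT&Tag cuts and tags the DNA beside an antibody-bound histone, and each list holds the places where the tags pile up over the local background. A mark was taken as present where both of its lists held a peak, as absent where neither did, and as undecided where 1 list did. A promoter reached 3000 bp to either side of a transcript start, and a distal region was a peak shared by both lists of a mark with its summits outside every promoter. Of 21938 protein-coding genes, 10367 had both marks at their promoter and 1715 had H3K4me3 alone, while 3218 distal regions carried H3K27ac without H3K4me3 and 3371 carried H3K4me3 without H3K27ac.

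The series asks how the arginine methyltransferase Prmt1 acts in the male germline, and the P14 WT lists of these marks describe its chromatin at the time when the first spermatocytes go through meiotic prophase. No transgene and no knockout allele are given for these samples. The titles of the samples name spermatogonia and their cell type field names spermatocytes, and the study's methods describe seminiferous tubules freed of interstitial cells by collagenase, then dissociated with trypsin and passed through a strainer meant to remove Sertoli cells. No sort is described for these samples. Set beside them were WT lists of the same marks from P7, lists of 5 arginine methylation marks from P14 WT, and 5 RNA libraries labelled WT from P7, 3 of bulk testis and 2 of sorted spermatogonia. By the labels and the study's methods the mice of the RNA libraries had received tamoxifen on consecutive days, and the sorted cells came from heterozygous Ddx4-CreERT2 mice with a single floxed Prmt1 allele. Nothing in the labels tells whether the replicates came from separate animals, so the spread between them may be technical.

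H3K4me3 is written at active and poised start sites, most often where CpG dinucleotides are dense, and H3K27ac marks active promoters and enhancers. In spermatocytes the zinc-finger methyltransferase PRDM9 also writes H3K4me3 away from genes, at the DNA sites it binds, and these sites become hotspots of meiotic recombination. Promoters with H3K4me3 but no H3K27ac are often those of developmental regulators held silent by Polycomb.

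Sequences are shown for the regions and promoters that the comparisons turn on. The letters GNTGCTNCT, where N is any base, were searched on both strands as an approximation of the sequence that the PRDM9 of C57BL/6 mice binds. The lines below give 200 bp around the centre of distal regions on the plus strand of GRCm38 (mm10), lower case except for matches to these letters on either strand, which are in capitals. The Cadm2 and Lrmda regions, chr16:66906108-66906307 and chr14:22348899-22349098, are among the 5 distal H3K4me3 regions without H3K27ac with the highest fold enrichment, and the region on chromosome 14 at chr14:92214462-92214661 ranks at the top of them and holds no match. The Kif21a region, chr15:91028748-91028947, and the region at chr17:3611578-3611777 are among the 5 highest distal H3K27ac regions without H3K4me3.
Cadm2 intron, H3K4me3: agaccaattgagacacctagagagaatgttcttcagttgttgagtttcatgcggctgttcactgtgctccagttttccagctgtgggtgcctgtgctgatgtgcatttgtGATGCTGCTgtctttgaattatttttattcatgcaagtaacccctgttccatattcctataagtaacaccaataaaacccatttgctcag
Lrmda intron, H3K4me3: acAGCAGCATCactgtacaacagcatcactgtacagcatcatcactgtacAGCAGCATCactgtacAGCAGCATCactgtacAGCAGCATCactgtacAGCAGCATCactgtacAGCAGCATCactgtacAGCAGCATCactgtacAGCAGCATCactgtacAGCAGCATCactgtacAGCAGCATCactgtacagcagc
Chromosome 14 intergenic, H3K4me3: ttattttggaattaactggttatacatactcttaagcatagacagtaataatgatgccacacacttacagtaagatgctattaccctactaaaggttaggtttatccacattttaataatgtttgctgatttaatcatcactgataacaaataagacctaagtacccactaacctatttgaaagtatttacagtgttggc
Kif21a intron, H3K27ac: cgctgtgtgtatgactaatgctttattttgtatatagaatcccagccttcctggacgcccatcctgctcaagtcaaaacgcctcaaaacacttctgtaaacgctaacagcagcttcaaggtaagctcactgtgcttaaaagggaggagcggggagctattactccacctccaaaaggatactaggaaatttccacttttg
Chromosome 17 intergenic, H3K27ac: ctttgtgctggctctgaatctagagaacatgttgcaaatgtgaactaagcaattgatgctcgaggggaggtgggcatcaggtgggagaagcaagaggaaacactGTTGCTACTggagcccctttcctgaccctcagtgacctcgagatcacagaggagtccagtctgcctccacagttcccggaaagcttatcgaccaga
The Cadm2 window has a single match and the Lrmda window is a tandem array with 10 matches in 200 bp.

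The promoters below are examples from the classes with both marks and with H3K4me3 alone. Each line gives the 250 bp before the start site from RefSeq (GRCm38.p6), 5′ to 3′ on the strand of the gene, with CpG dinucleotides in capitals. Tex12 encodes a central element protein of the synaptonemal complex and carried both marks (chr9:50561269-50561518, minus strand), and Isl1 encodes a LIM homeodomain transcription factor and carried H3K4me3 alone (chr13:116309689-116309938, minus strand).
Tex12: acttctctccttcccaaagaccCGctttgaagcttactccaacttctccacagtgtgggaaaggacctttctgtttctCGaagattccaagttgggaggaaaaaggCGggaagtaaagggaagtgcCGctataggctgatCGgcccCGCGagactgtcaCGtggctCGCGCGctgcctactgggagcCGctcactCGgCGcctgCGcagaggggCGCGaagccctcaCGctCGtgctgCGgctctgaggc
Isl1: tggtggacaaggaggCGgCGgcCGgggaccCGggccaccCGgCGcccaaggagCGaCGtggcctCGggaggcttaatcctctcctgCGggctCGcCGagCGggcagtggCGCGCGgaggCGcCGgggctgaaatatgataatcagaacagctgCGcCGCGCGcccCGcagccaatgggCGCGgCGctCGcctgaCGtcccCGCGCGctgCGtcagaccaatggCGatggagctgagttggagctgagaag
Tex12 has 20 CpG and 60.0% G and C in this stretch, and Isl1 has 33 CpG and 71.2%, beside a median of 6.00 CpG and 52.4% over the same stretch of all 32817 RefSeq promoters. They are the most CpG-rich of the named genes looked up in their lists: Sycp2 and Sycp1, with both marks, have 7 and 17 CpG, and Hoxd13, Hoxd1 and Msx2, with H3K4me3 alone, have 31, 24 and 16.

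The H3K27ac lists held 37984 and 45817 peaks and the H3K4me3 lists 25627 and 26635, of which 381 in all lay outside chromosomes 1 to 19, X and Y and were left out. The numbers of reads behind the lists are unknown. Peak names give a p threshold of 0.005 for H3K27ac and a q threshold of 0.05 for H3K4me3, so the lists were not called alike. At a q of at most 0.05, 27292 and 31027 of the H3K27ac peaks remained. Of the H3K4me3 peaks, 85.3% and 80.8% had an overlapping peak in the other replicate, and of the H3K27ac peaks 42.0% and 37.8% had one. Median peak widths were 691 and 728 bp for H3K4me3 and 323 and 301 bp for H3K27ac.

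H3K4me3 peaks lay at promoters more often than H3K27ac peaks. Summits within 3000 bp of a start made up 69.5% and 68.7% of the H3K4me3 lists and 48.6% and 44.6% of the H3K27ac lists. The means were 69.1% ± 0.512 and 46.6% ± 2.87 (SD, n = 2 each) and the difference was 22.5 percentage points. The lists of the marks did not overlap, and the two-sided exact permutation test gave p = 0.33, the smallest that 2 lists against 2 allow. With a q of at most 0.01 in all lists the difference was 4.44 points, and with lists of equal length it was 12.2 points.

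Of 21020 H3K4me3 regions shared by its replicates, 15822 lay at promoters, and of 15511 H3K27ac regions 10935 did. At promoters the marks mostly came together, since 9375 of the H3K4me3 regions (59.3%) met H3K27ac of both lists and 9557 of the H3K27ac regions (87.4%) met H3K4me3. Away from promoters they mostly did not, since 917 of 5198 distal H3K4me3 regions (17.6%) met H3K27ac and 900 of 4576 distal H3K27ac regions (19.7%) met H3K4me3. The plot of regions of each mark shows these counts with the undecided regions between them.

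**Figure D1:**
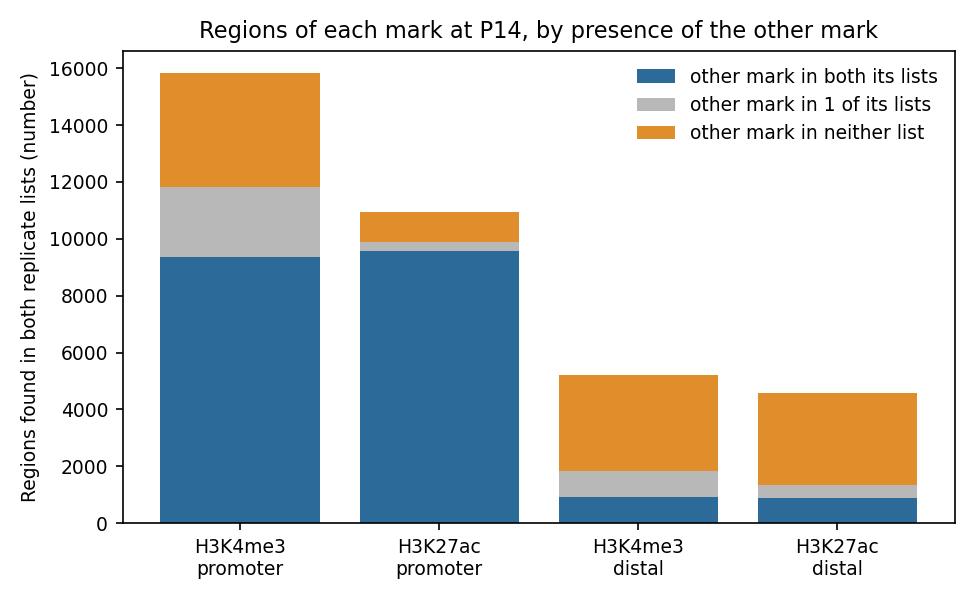
Number of regions found in both replicate lists of a mark at P14, split by place and by whether the other mark was in both, 1 or neither of its lists. The blue part with the other mark fills 59.3% and 87.4% of the promoter bars of H3K4me3 and H3K27ac but 17.6% and 19.7% of the distal bars.

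Per gene, H3K4me3 was in both lists at 13846 protein-coding promoters (63.1%) and H3K27ac at 10731 (48.9%). The class with both marks made up 47.3% of protein-coding genes and the class with H3K4me3 alone 7.82%. H3K27ac alone was rare, with 228 genes (1.04%), neither mark was found at 6056 (27.6%), and 3572 (16.3%) were undecided, among them 1764 with H3K4me3 in both lists and H3K27ac in 1. Promoters of long intergenic RNAs had both marks at 466 of 5854 genes (7.96%) and H3K4me3 alone at 181 (3.09%), and promoters of antisense RNAs at 627 (21.2%) and 210 (7.10%) of 2959. Without H3K27ac replicate 1 the class with H3K4me3 alone grew to 2752 protein-coding genes and at a q of at most 0.01 to 3053, and the class with both marks lay between 8671 and 12518 genes under every setting tried.

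Peaks of the class with both marks were wider and higher. The median H3K4me3 width at these promoters was 1133 and 1175 bp in the replicates, against 625 and 726 bp with H3K4me3 alone, and the median fold enrichment over the local background was 6.49 and 6.88 against 4.77 and 5.20. Peaks of at least 2000 bp were found at 2.27% and 2.82% of promoters with both marks, against 0.0583% and 0.292% of those with H3K4me3 alone. The widest with both marks was Cdk6, a cyclin-dependent kinase of the G1 phase, with 3323 and 3396 bp, before Ing1, Cpeb2, Tsc22d2 and Adgrl2. The widest with H3K4me3 alone was the Wnt receptor gene Fzd10, with 2379 and 1750 bp, and Rassf10, Insm2 and Foxd2 followed among the widest. Insm2 and Foxd2 encode developmental transcription factors.

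Genes of meiotic prophase had both marks. Of 39 listed genes found in the annotation, 36 carried both, beside 47.3% of all protein-coding genes, and none carried H3K4me3 alone, beside 7.82%. The other 3, Mei1, Rec114 and Morc2b, were undecided. Tex12 had an H3K4me3 fold enrichment of 8.88 and 9.86 and an H3K27ac fold enrichment of 5.48 and 3.55. Sycp1, the transverse filament of the synaptonemal complex, had 9.49 and 8.80 for H3K4me3 and 6.57 and 5.62 for H3K27ac, and Sycp2, of its axial element, had 9.97 and 8.38 and then 7.73 and 7.01. Ythdc2, an RNA helicase needed for entry into meiosis, had 10.6 and 9.10 for H3K4me3 and 5.67 and 5.34 for H3K27ac. Fold enrichments are relative to the background of each sample and were not compared between the marks. The genes of Spo11, which makes the meiotic DNA breaks, of the strand-exchange recombinase Dmc1, of the cohesin subunits Rec8, Stag3, Smc1b and Rad21l, and Prdm9 itself were among the 36. Cytosolic ribosomal protein genes behaved alike, with 75 of 77 in the class with both marks.

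Developmental regulators, in contrast, had H3K4me3 alone in 41 of 72 cases (56.9%, beside 7.82% of all protein-coding genes) and both marks in 2 (2.78%, beside 47.3%), Tbx1 and Hoxd9. Another 16 were undecided (22.2%, beside 16.3%) and 13 had neither mark (18.1%, beside 27.6%). Isl1 had an H3K4me3 fold enrichment of 6.65 and 7.20, the limb and genital patterning gene Hoxd13 had 6.49 and 6.91, Hoxd1 had 6.05 and 6.04, and the homeobox gene Msx2 had 5.94 and 5.67. These are the listed genes of the class with the highest H3K4me3. The list holds transcription factors and signalling proteins of embryonic patterning, and the 41 include the factors Pax6, Sox2, Hand2 and Gata2 and the signal Shh.

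Of 24 spermatogonial genes, 10 (41.7%) had both marks, a share near the 47.3% of all protein-coding genes, and 6 had H3K4me3 alone, beside 7.82%. Another 6 were undecided, Sohlh1 had H3K27ac alone and Nanos2 had neither. Kit, the receptor of differentiating spermatogonia, had both marks, with an H3K4me3 fold enrichment of 5.68 and 7.09 and an H3K27ac fold enrichment of 3.99 and 3.18, as did Dmrt1, Etv5 and Sohlh2. Ret and Gfra1, which together form the receptor of the stem cell factor GDNF, had H3K4me3 alone, Ret with 5.22 and 6.21 and Gfra1 with 3.5 and 4.4, and Utf1, Egr4, Lhx1 and Cdh1 did too. At P7 H3K27ac was in neither list at Ret, Utf1, Egr4 and Cdh1, while H3K4me3 was in both lists at Ret, Egr4 and Cdh1 and in 1 list at Utf1.

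Of 40 spermatid genes, used after meiosis, 18 (45.0%) had neither mark, beside 27.6% of all protein-coding genes, among them the protamine genes Prm1 and Prm2 and the transition protein gene Tnp1. Both marks were found at 7 (17.5%), beside 47.3% of all protein-coding genes, 2 had H3K4me3 alone, 3 had H3K27ac alone and 10 were undecided. Zpbp, which encodes an acrosome protein, had an H3K4me3 fold enrichment of 8.33 and 9.12 and an H3K27ac fold enrichment of 7.14 and 9.47, and Oaz3, an antizyme of germ cells, had 8.0 and 10.5 and then 6.83 and 6.17. Both already had H3K4me3 in the pair of P7 lists. Olfactory receptor genes, which testis cells are not known to use as a family, had neither mark in 1082 of 1135 cases.

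Markers of other testicular cells give a measure of what else the lists hold. Over all protein-coding genes the shares were 47.3% with both marks, 7.82% with H3K4me3 alone, 1.04% with H3K27ac alone, 16.3% undecided and 27.6% with neither. Of 17 Sertoli genes 6 (35.3%) had both marks, including Sox9, Gata4, Wt1 and Inha, 2 had H3K4me3 alone, 8 were undecided and Rhox5 had neither. Of 9 Leydig genes none had both marks, Cyp11a1 and Star had H3K27ac alone, 5 were undecided, and Insl3 and Ren1 had neither. Of 7 peritubular myoid genes Acta2 and Myl9 had both marks, Des had H3K4me3 alone and 4 were undecided. No macrophage gene of 10 had H3K4me3 or H3K27ac in both lists, with 6 in the class with neither and 4 undecided. Of 8 endothelial genes Kdr and Vwf had H3K4me3 alone, 2 had neither mark and 4 were undecided. A promoter with H3K4me3 alone in the mixture can carry H3K27ac in a minor cell type below the calling threshold, which peak lists cannot tell apart. The part that Sertoli cells play in the class sizes was not tested.

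**Figure D2:**
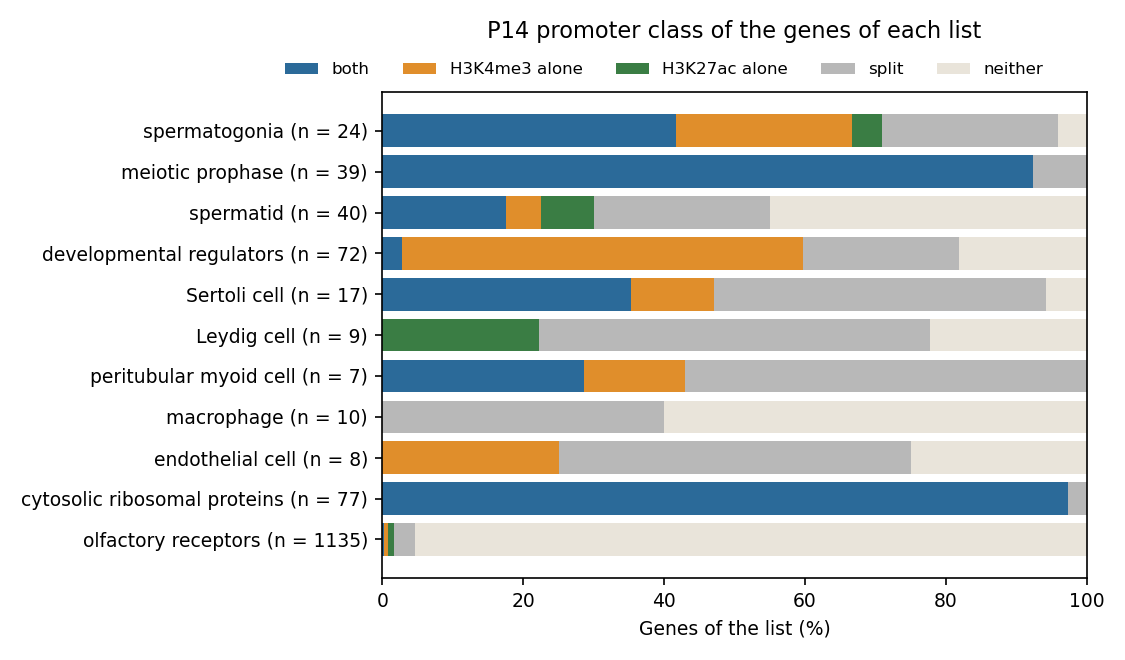
Share of the genes of each hand-written list in each P14 promoter class, with the number of genes in brackets. Meiotic prophase and ribosomal protein genes fall almost wholly in the class with both marks (36 of 39 and 75 of 77), developmental regulators mostly in the class with H3K4me3 alone (41 of 72).

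The RNA libraries of the series come from P7, so they describe the genes 7 days of age and not 14. In 3 bulk libraries of whole testes, the median TPM (a transcript level scaled by gene length and library size) of genes with both marks at P14 was 29.9, 30.3 and 28.1, and that of genes with H3K4me3 alone was 1.52, 1.65 and 1.5. In 2 Smart-seq2 libraries of sorted spermatogonia the medians were 24.7 and 23 against 0 and 0. The medians of these classes lay apart in each library, while the values of single genes overlapped. At least 1 TPM was reached by 95.2%, 95.4% and 95.3% of genes with both marks in bulk and by 88.3% and 84.7% in Smart-seq2, against 56.9%, 57.3% and 56.1% and then 28.1% and 24.2% with H3K4me3 alone. Genes with H3K27ac alone were at 0.250, 0.330 and 0.260 TPM in bulk, and genes with neither mark at 0 in all 3. Each library gives both classes, so the classes were compared within libraries and no test over samples was made. Sycp1 was already at 288 and 289 TPM in sorted P7 spermatogonia, and Tex12 at 199 and 222. Isl1, in contrast, was at 4.01 and 9.96 TPM and Hoxd1 and Hoxd13 were listed at 0 in both.

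**Figure D3:**
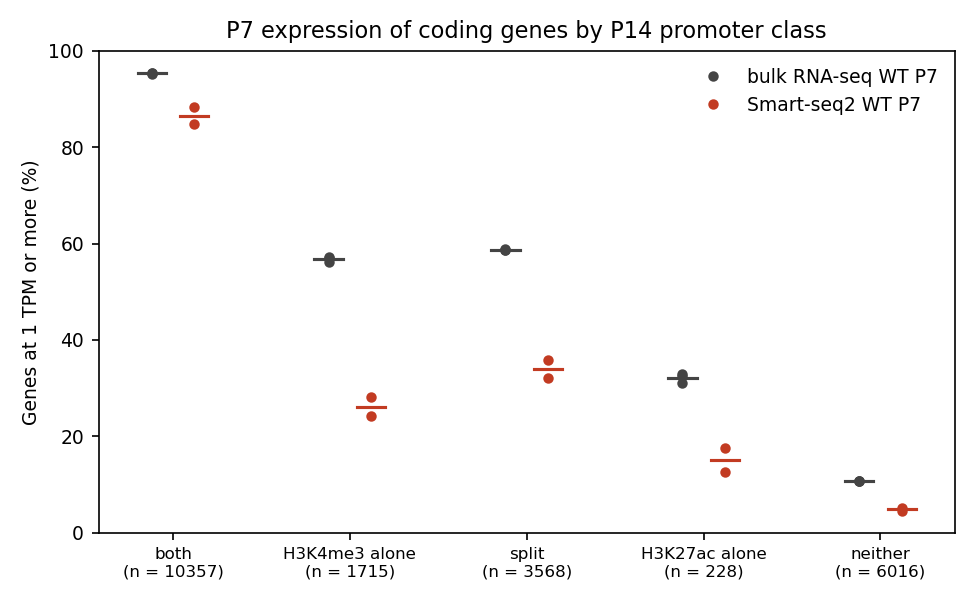
Share of protein-coding genes with at least 1 TPM in each P7 WT library (points, with the mean of the libraries as a line), by P14 promoter class. Genes with both marks lie at 84.7% to 95.4%, genes with H3K4me3 alone at 24.2% to 57.3%, and genes with neither mark at 4.45% to 10.8%.

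The P7 lists of the same marks show how far the P14 promoter classes were already there a week earlier. Of promoters with both marks at P14, 98.0% had H3K4me3 in both P7 lists, and 61.8% had H3K27ac in both. Of promoters with H3K4me3 alone at P14, 77.1% had H3K4me3 in both P7 lists and 85.7% had H3K27ac in neither. H3K27ac in both P7 lists was found at 34 of these 1715 promoters (1.98%). The P7 lists are shorter, with 18364 to 23670 peaks, and the part of list length in absence at P7 was not tested.

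Distal regions with H3K4me3 and no H3K27ac differed from promoters in base composition. A 300 bp window at their centres held a median of 3 CpG and 47.0% G and C, against 26 CpG and 66.0% at promoter regions with both marks and 19 CpG and 63.3% at promoter H3K4me3 regions without H3K27ac. Their peaks were of the same order in height and width as promoter peaks without H3K27ac, with a median fold enrichment of 4.88 and 5.26 against 4.45 and 4.83, and a median width of 571 and 652 bp against 542 and 643 bp. They lay a median of 27.1 kb from the nearest protein-coding start, 49.2% in introns, 42.7% between genes and 8.10% in exons. Distal H3K27ac regions without H3K4me3 had a similar composition, with 3 CpG and 48.7% G and C, but were narrower, with 333 and 346 bp, and lay closer to start sites, with a median of 20.6 kb, 59.1% of them in introns.

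The PRDM9-like letters GNTGCTNCT were most frequent in the distal H3K4me3 regions without H3K27ac. They were present in the central 300 bp of 587 of 3371 of these regions, or 17.4% (95% Wilson interval 16.2 to 18.7, counting error only). The share was 7.21% (6.37 to 8.16) in distal H3K27ac regions without H3K4me3, 8.07% (6.48 to 10) in distal H3K4me3 regions with H3K27ac and 9.08% (8.51 to 9.68) in promoter regions with both marks. Over all RefSeq promoters of 300 bp it was 7.23%, over all H3K4me3 regions 11.2% and over all H3K27ac regions 7.95%. Promoter H3K4me3 regions without H3K27ac held the letters in 12.1% (11.1 to 13.1). List by list, the share in distal peaks without the other mark was 13.6% and 14.2% for H3K4me3 and 7.49% and 7.06% for H3K27ac, and the lists of the marks did not overlap (difference 6.66 points, exact permutation p = 0.33, the smallest possible). A match describes the letters and does not show that PRDM9 was bound.

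The letters sat at the centres of the regions. Within 100 bp of the centre of distal H3K4me3 regions without H3K27ac there were 9.11 matches per 100 regions and 100 bp, and from 500 to 1000 bp away there were 2.54, a ratio of 3.59. For distal H3K27ac regions without H3K4me3 the values were 2.81 and 2.45, a ratio of 1.15, so the letters were spread nearly evenly there. Promoter H3K4me3 regions had ratios of 2.30 without H3K27ac and 1.95 with it. The plot of matches by distance shows the peak within about 200 bp of the centre.

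**Figure D4:**
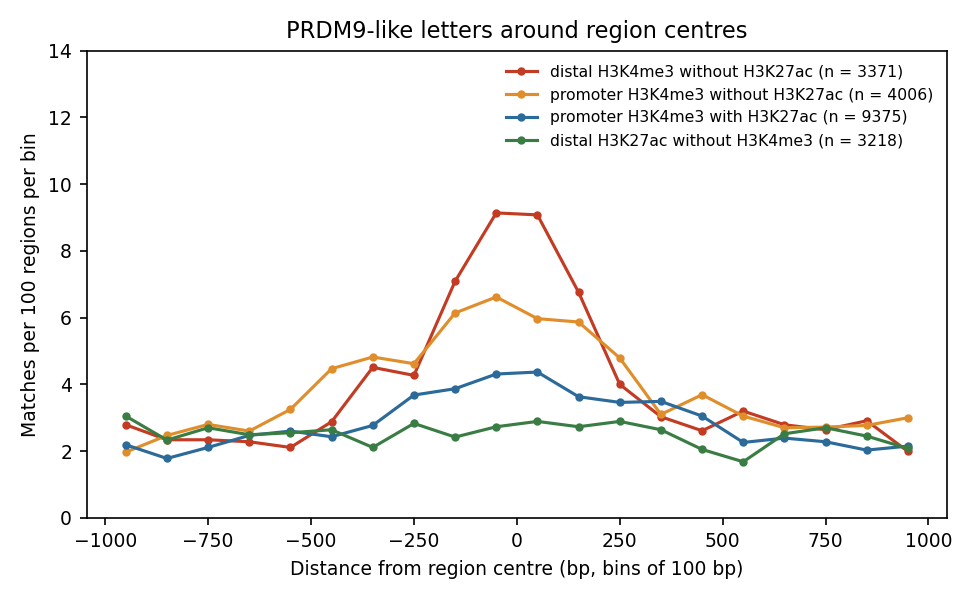
Matches to the PRDM9-like letters on either strand per 100 regions in bins of 100 bp, by distance from the region centre, for 4 classes of regions. The 3371 distal H3K4me3 regions without H3K27ac rise to 9.11 at the centre, while the 3218 distal H3K27ac regions without H3K4me3 stay near 2.81.

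A count of all 8-letter words, made without any motif, gave related letters. In the central 200 bp of distal H3K4me3 regions without H3K27ac, the words with the largest excess over windows 1500 bp to either side were GCTGCTGC (180 regions against a mean of 48.5 in the flanks), GGTGCTGC (142 against 23) and GATGCTGC (138 against 27.5), each with its reverse complement. In distal H3K27ac regions without H3K4me3 the same words were found in 77, 28 and 23 regions against 42.5, 21.0 and 29.0. There the leading words were CA repeats, CACACACA in 383 of 3218 regions against 248 in the flanks, whereas in the H3K4me3 regions this word was found in 203 against 218. GCTGCTGC, leading in the H3K4me3 regions, is a repeat word too, and the Lrmda region is a tandem array. Simple repeats can be hard to map, and how far they add to the peaks of either mark was not tested.

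Most distal H3K4me3 regions without H3K27ac were absent from the P7 lists. In neither P7 H3K4me3 list were 2945 of 3371 (87.4%), whereas promoter H3K4me3 regions without H3K27ac overlapped the P7 lists in 66.4% and 69.6% and distal regions with both marks in 65.8% and 69.8%. Those in neither P7 list held the PRDM9-like letters in 18.6% (17.2 to 20.1) and a mean of 3.90 CpG. The 234 that were in both P7 lists held them in 8.55% (5.60 to 12.8) and had a mean of 19.8 CpG, and the 192 in 1 list held them in 9.90% (6.43 to 14.9) with 16.1 CpG. Within this class, the many regions in neither P7 list thus held fewer CpG on average than the few seen at both ages. Height went the same way: in 4 groups of nearly equal size from low to high mean fold enrichment, the letters were found in 13.8%, 16.6%, 18.3% and 21.0%, and 82.6%, 84.4%, 89.7% and 92.9% were in neither P7 list. The P7 H3K4me3 lists held 19063 and 18364 peaks, fewer than those of P14, and the part of list length was not tested.

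Of the regions with the highest H3K4me3 in this class, those named here were each in neither P7 H3K4me3 list. The region at chr14:92213989-92215135, 1671 kb from the start of Pcdh9, had fold enrichments of 10.7 and 8.13. The region at chr16:66905846-66906570 in an intron of Cadm2, whose central sequence is shown above, had 7.93 and 10.4, and the array at chr14:22348580-22349417 in an intron of Lrmda had 9.06 and 9.26. The array also overlapped peaks in 2 of 3 H4R3me2a lists and 1 of 2 H3R2me2a lists at P14, and the others named here overlapped no arginine mark list. A further region lay 16.9 kb from Fancl (chr11:26368816-26369636, 8.61 and 9.54). Of these regions those of Cadm2 and Lrmda held the letters in their central 300 bp.

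Distal H3K27ac regions without H3K4me3 overlapped the P7 H3K27ac lists in 23.7% and 29.4%. Promoter H3K27ac regions without H3K4me3 overlapped them in 20.2% and 24.9%, and distal H3K27ac regions with H3K4me3 in 53.3% and 55.6%. The letters CAAGGTCA, an extended nuclear receptor half-site bound by the steroidogenic factor NR5A1, were found in 3.67% (3.07 to 4.37) of them, against 1.75% (1.36 to 2.25) of distal H3K4me3 regions without H3K27ac and 1.56% of all RefSeq promoters. Promoter H3K27ac regions without H3K4me3 held them in 3.70% (2.72 to 5.01), so the share was not particular to the distal regions. NR5A1 is a factor of Sertoli and Leydig cells, which the collagenase and strainer steps were meant to remove and whose marker genes are given above, and the part of those cells in this share was not tested. The number of these regions depended on the lists more than any other count: it was 1766 at a q of at most 0.05 in all lists, 730 at a q of at most 0.01, 23051 without H3K27ac replicate 1 and 16907 without H3K27ac replicate 2.

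Of the 5 regions of this class with the highest H3K27ac fold enrichment, 3 were shared with several arginine marks. The region at chr10:44211010-44211389 in Speer5-ps1 (7.97 and 4.63), that at chr14:44206282-44206792 in 4930503E14Rik (7.25 and 4.30) and that at chr13:42519295-42520210 (4.35 and 6.95) each overlapped peaks in all 3 H4R3me2a lists and in both H3R2me2a, H3R8me2a and H4R3me1 lists at P14. Speer5-ps1 belongs to a multicopy family, where reads can be placed in more than a single copy. The Kif21a intron region (chr15:91028560-91029135) had 5.63 and 6.38 and overlapped no arginine mark list. The region at chr17:3610969-3612386 between genes had 6.85 and 4.84, with the PRDM9-like letters in its window and a peak in 1 H3R8me2a and 1 H4R3me2s list.

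Among promoter regions, letters of factors that bind CpG-rich start sites differed between the classes. With both marks, the ETS and CTCF letters were more frequent than over all RefSeq promoters, while the cyclic AMP response element and NRF1 letters were not. The RefSeq windows lie mostly before the start site and the others at region centres, so they are not placed alike. The ETS letters CCGGAAG were found in 14.6% (13.9 to 15.4) of promoter regions with both marks and 4.64% (4.03 to 5.34) of promoter H3K4me3 regions without H3K27ac, beside 8.86% of all RefSeq promoters. The cyclic AMP response element TGACGTCA was found in 1.67% (1.43 to 1.95) and 0.399% (0.246 to 0.648), beside 1.79%, and the NRF1 letters GCGCATGCG in 1.71% (1.46 to 1.99) and 0.275% (0.153 to 0.491), beside 1.75%. Promoter H3K27ac regions without H3K4me3 had the lowest shares, with 2.56% (1.76 to 3.70) for the ETS letters and 0.0948% (0.0167 to 0.535) for each of the others, or 1 of 1055 regions. The CTCF letters CNAGGNGGC were closer together, with 13.1% (12.4 to 13.8) and 11.7% (10.7 to 12.7), beside 8.38%. These windows were placed at region centres, which lay a median of 0.137 kb from a protein-coding start with both marks and 0.354 kb without H3K27ac. Centres of promoter H3K27ac regions without H3K4me3 lay a median of 2.19 kb away, so most of those windows did not hold a protein-coding start. The median CpG count per window was 26, 19 and 4 in the same order. Distance to the start site and CpG count thus moved with the shares, and their part was not tested.

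Peak lists of 5 arginine methylation marks at P14 were not used to define the classes. Where H3K4me3 and H3K27ac came together, these marks were found most often, at promoters and away from them. H3R2me2a overlapped 77.9% ± 2.25 of promoter regions with both marks and 71.5% ± 2.0 of distal H3K4me3 regions with H3K27ac (SD, n = 2 lists). It overlapped 40.9% ± 3.34 of promoter H3K4me3 regions without H3K27ac, 24.8% ± 2.68 of distal H3K27ac regions without H3K4me3 and 12.7% ± 0.818 of distal H3K4me3 regions without H3K27ac. H4R3me2a, a histone mark that the study assigns to Prmt1, gave 64.8% ± 5.20, 60.8% ± 2.20, 20.8% ± 3.40, 22.1% ± 1.40 and 7.83% ± 1.02 in the same order (n = 3 lists). H4R3me2s, the symmetric form, gave 51.2% ± 6.98, 44.5% ± 4.63, 10.2% ± 3.09, 9.79% ± 3.04 and 3.19% ± 0.732 (n = 3 lists), and the peak names in its lists carry another age than the labels. H3R8me2a and H4R3me1 had the same lowest class, with 6.10% ± 0.315 and 5.41% ± 0.608 of distal H3K4me3 regions without H3K27ac (n = 2 lists each). For each of the 5 marks the lists of that class lay below those of all other classes shown. Regions of this class were wider than distal H3K27ac regions without H3K4me3 but narrower than promoter regions with both marks, whose median widths were 1088 and 1127 bp, and the part of width in the overlap was not tested. The order of the distal classes turned for H3R2me2a when H3K27ac replicate 1 was left out, with 18.6% of distal H3K4me3 regions against 11.8% of distal H3K27ac regions, and when a mark in at least 1 list counted as present, with 17.4% against 13.8%. Overlap grows with list length, and the lists held between 18264 and 55750 peaks.

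**Figure D5:**
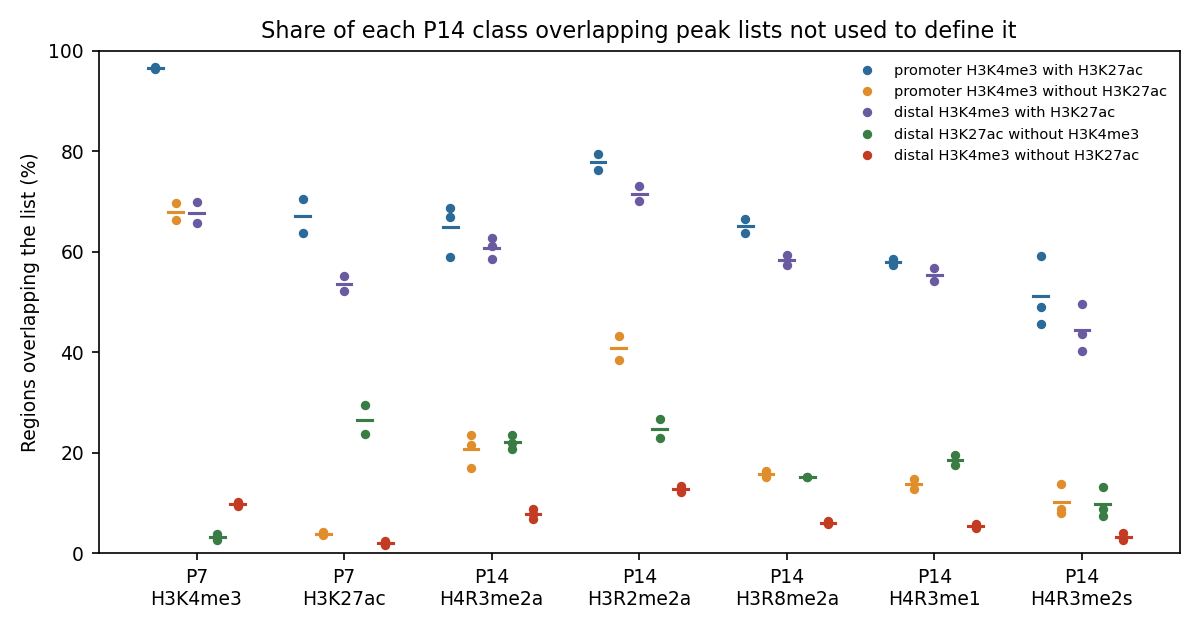
Share of the regions of 5 classes that overlap each peak list not used to define the classes (points are lists, lines their means). Distal H3K4me3 regions without H3K27ac (red) lie lowest for each arginine mark, at 2.58% to 13.3%, and regions with both marks lie highest, at 40.3% to 79.5%.

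The X chromosome, which is silenced in pachytene spermatocytes and is present once per male cell, held fewer regions per Mb than any autosome in each class examined, promoters included. It makes up 6.28% of the sequence but holds 4.32% of protein-coding genes, so fewer promoters per Mb. Promoter regions with both marks numbered 1.98 per Mb on X, against 2.41 to 6.34 on the autosomes, and promoter H3K4me3 regions without H3K27ac 0.859, against 1.04 to 2.46. Distal H3K27ac regions without H3K4me3 numbered 37 on X, or 0.216 per Mb, against 0.941 to 1.57 per Mb on the autosomes. Distal H3K4me3 regions without H3K27ac numbered 104, or 0.608 per Mb, against 0.937 to 1.86. Peaks on X made up 3.42% and 3.41% of the H3K4me3 lists and 1.95% and 2.11% of the H3K27ac lists, which did not overlap (difference 1.38 points, exact permutation p = 0.33). Of 948 protein-coding promoters on X, 342 had both marks (36.1%, against 48.1% of 20807 on autosomes) and 84 had H3K4me3 alone (8.86%, against 7.83%). Gene density, the lower copy number of X and silencing cannot be told apart in these lists.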

How the data were processed

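CUT&Tag peak lists of WT testicular cells at P14 were taken as deposited. The authors trimmed reads with fastp 0.23.2, per the submitters' processing notes, mapped them to mm10 and called peaks with MACS2 2.1.0 in each sample. The deposited lists give fold enrichment (a ratio over the local background), −log10 p and −log10 q, and the authors' RNA tables give TPM from RSEM. For the CUT&Tag reads the aligner is not given in the sources used here. Among the 43 samples, the 4 P14 lists define the classes, and the P7 WT lists of both marks, the P14 arginine mark lists and the 5 P7 WT RNA libraries were set beside them. According to the study's methods the sorted control spermatogonia came from heterozygous Ddx4-CreERT2 mice with a single floxed Prmt1 allele. Read depths of the lists are unknown.

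Peaks on chromosomes 1 to 19, X and Y were placed by summit within 3000 bp of 141730 transcript starts (GENCODE vM21, GRCm38). Peaks of a mark were merged where they overlapped by at least 1 bp, and a region was kept with a peak of both lists. Distal regions were classed by overlap with the other mark. Motifs were searched on both strands in 300 bp windows at region centres of the GRCm38 sequence, with Wilson intervals at 95%, each motif counted on its own, so that a stretch may match more than 1 of them. Windows for 8-letter words were 200 bp. TPM tables matched 21884 of 21938 protein-coding genes. Lists were compared by two-sided exact permutation tests, whose smallest p is 0.33 for 2 against 2 and 0.50 when paired by replicate number. Gene lists were described by counts with no set test. The class scripts were tested on simulated peaks. All steps ran in Python 3.11.15, with pandas 2.3.3 and numpy 2.4.6 for tables, scipy 1.17.1 for intervals and matplotlib 3.10.9 for plots.

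The members, gene lists and motifs were chosen with earlier results of these data known. Genes named are up to 4 per list and class with the highest mean H3K4me3 fold enrichment and the 5 per promoter class with the widest H3K4me3 peak, and regions named are the 5 per distal class with the highest mean fold enrichment. Some items that the rule names are not reported here. Further genes are named for their class alone, except Gfra1, whose values were seen before it was chosen. Alternatives were the promoter window, overlap in place of summits, q thresholds, equal list length, a mark in at least 1 list, leaving out each replicate, protein-coding starts, a gap of 1000 bp, a stricter replicate overlap, 150 bp or summit windows and bulk RNA in place of Smart-seq2.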

Additional observations from a re-analysis of the deposited data

How the results depend on the processing

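Of 215 recomputed values under 18 settings, 153 kept to the limits set. These were 1.5 times a count and the interval or SD of a share. For the difference in promoter share only the direction was asked for, and it was kept under all of its 12 settings. Promoters with both marks stayed within 1.5 times under all 11 settings. Promoters with H3K4me3 alone numbered 3053 at a q of at most 0.01, and 1852 to 2752 without a replicate. Distal H3K27ac regions without H3K4me3 numbered 1766 at a q of at most 0.05, 730 at a q of at most 0.01, 1422 with lists of equal length and 36454 with a mark taken from at least 1 list, and 3397 to 23051 without a replicate. Distal H3K4me3 regions without H3K27ac numbered 7178 with a mark taken from at least 1 list, and 3776 to 5751 without a replicate. Leaving out a list removes the demand that both replicates hold the peak, which enlarges the classes by construction.

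The difference in promoter share was 4.44 to 25.5 points, and with the replicate number as a block it was 22.5 points (exact paired p = 0.50, the smallest that 2 pairs allow). The share of PRDM9-like letters was 10.1% to 17.7% in distal H3K4me3 regions without H3K27ac and 4.01% to 8.22% in distal H3K27ac regions without H3K4me3, the lowest of each in windows of 150 bp, and the former was higher under all settings. For distal H3K4me3 regions without H3K27ac, the share in neither P7 H3K4me3 list was 82.6% to 89.3%, within its interval under 4 of 13 settings. Their H3R2me2a overlap was 8.51% to 18.6%, within its SD under 2 of 14 settings. The order of the distal classes in H3R2me2a overlap turned under 2 settings, as given above. Read depth is unknown, so a missing peak does not show that a mark was absent. The exact permutation test cannot reach 0.05 with 2 lists per mark, and the cause of the moved counts beyond list construction was not tested.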
